A study of Mus musculus with 12 samples.

Results

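The myogenic regulatory factors Myod1, Myog, Myf5 and Myf6, the satellite cell factor Pax7 and the MEF2 genes Mef2a, Mef2c and Mef2d were followed in the muscle of mice carrying Lewis lung carcinoma cells and in the open chromatin of cultured myotubes. The 8 genes were chosen by symbol, and all 8 had a row among the 20194 genes of the RNA table. The 38244 merged peaks of the chromatin table held 21 that the authors had annotated to one of these genes, spread over 7 of the 8. Mef2d had 7 peaks, Mef2a 6, Myf6 3, Myod1 2, and Myog, Pax7 and Mef2c 1 each, while Myf5 had 0. The RNA came from muscle of C57BL/6 mice injected subcutaneously with 500000 cells of the Lewis lung carcinoma (LLC), against mice injected with PBS, all taken on day 22, with 3 libraries in each group. The labels give "cachexia" as the cell type of both groups and do not name the muscle. The chromatin came from C2C12 cells, a mouse myoblast line labelled with the genotype C3H, that had been differentiated in horse serum. For 24 hours they received medium that a mouse colon tumour line, Colon-26 (C26), had conditioned, against control medium, with 3 libraries in each group. The titles call these cells myotubes and the cell type label reads myoblast. The labels do not tie the libraries to separate animals or to separately grown cultures. What the p-values weigh is thus the spread between libraries, which may be technical.

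As background, Myod1 and Myf5 are basic helix-loop-helix factors that commit cells to the muscle lineage, Myog drives the differentiation of myoblasts into fibres, and Myf6 (also called MRF4) is the member of the family that mature fibres keep. All 4 bind DNA at the E-box, as dimers with E proteins. Pax7 marks satellite cells, the stem cells of adult muscle. Mef2a, Mef2c and Mef2d encode factors of the MADS-box family that bind AT-rich sites and act together with the myogenic factors, and class IIa histone deacetylases hold them in check. In adult muscle Myog is known to rise after denervation.

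The promoter of Myog is shown because the motifs of both families occur in it. The 250 bases before the start of Myog on the plus strand, chr1:134289754-134290003 in GRCm38.p6 from RefSeq, are given 5′ to 3′, with E-boxes and the MEF2 core in capitals.

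Myog: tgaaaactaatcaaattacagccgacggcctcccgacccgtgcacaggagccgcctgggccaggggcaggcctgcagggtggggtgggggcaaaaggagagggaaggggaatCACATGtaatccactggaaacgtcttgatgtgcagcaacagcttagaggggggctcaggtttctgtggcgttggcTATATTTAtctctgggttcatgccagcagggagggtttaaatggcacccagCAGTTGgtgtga

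The motifs searched on both strands were the E-box CANNTG, its form CAGCTG, and a MEF2 core of TA, 4 bases that are each A or T, and TA. Each of them reads the same way on either strand, and the capitals do not overlap. The Myog window held 0 copies of CAGCTG and 2 other E-boxes, beginning 138 and 12 bases before the start, and 1 MEF2 core, beginning 63 bases before it. Over 32817 RefSeq promoter windows of the same length, 66.2% held an E-box, 13% held CAGCTG and 8.56% held a MEF2 core. Of the other members, 5 matched the promoter table. The windows of Mef2d, Mef2a, Pax7 and Myf5 held neither an E-box nor a MEF2 core. Mef2c had 3 windows, of which the first held 2 E-boxes and 1 MEF2 core, the second neither, and the third 1 E-box. The windows of Mef2d and of Mef2a were each overlapped by 1 peak of the myotubes, and the Myog window by 0.

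The RNA libraries held 17.0 to 20.1 M tags and the chromatin libraries 10.1 to 18.2 M. RNA is given in FPKM, that is, fragments per kilobase of transcript, scaled by library depth, and chromatin in tags per peak scaled to 10 M tags of the library. One of the control myotube libraries, control 1, stood apart with 27% of its tags in peaks, against 12% to 13.5% in the C26 medium libraries and 13.1% and 17.9% in the other 2 controls. The median log2 difference over all peaks, C26 medium minus control, was -0.54 on the deposited scale. After median-of-ratios scaling, which sets the typical peak equal between libraries, it was -0.02. Chromatin results are therefore given on both scales.

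None of the 6 members tested in muscle passed the adjusted threshold of 0.05 with limma, and neither did any of the 12981 genes tested, a background of 0.00%, which does not show that their levels were equal. At an unadjusted p under 0.05 limma gave 991 of those genes (7.63%), edgeR gave 0 adjusted and 932 unadjusted, and DESeq2 gave 312 of 12954 adjusted (2.41%), none of them a member. Of all genes tested, 13.4% had LLC and PBS libraries that did not overlap, 9.50% with LLC higher and 3.94% with LLC lower. The log2 difference was above 0 for 4 of the 6 members tested and for 53.0% of all genes tested. Of the 8 members, 2 had no overlap, Myod1 with LLC lower and Myf5 with LLC higher. Myf5 was under the filter and is not among the genes tested, so Myod1 was the only tested member without overlap. Bulk muscle cannot tell fewer cells of a type from less RNA per cell.

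Myod1 (NM_010866, chr7:46376474-46379092, plus strand, mm10) had 7.72, 5.74 and 4.80 FPKM in the LLC libraries, against 12.8, 10.6 and 7.91 FPKM in the PBS libraries. Every LLC library was below every PBS library, although the highest LLC value and the lowest PBS value lay close together. The means were 6.09 ± 1.49 FPKM in LLC and 10.4 ± 2.47 FPKM in PBS (SD, n = 3 each), and the limma log2 difference was -0.69 with an SE of 0.23 and an adjusted p of 0.537. Its unadjusted limma p of 0.0242 was as small as that of 4.51% of the genes tested.

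Myog (NM_031189, chr1:134290004-134292548, plus strand) had 1.97, 4.30 and 4.21 FPKM in the LLC libraries, against 2.17, 1.75 and 1.56 FPKM in the PBS libraries. LLC 2 and LLC 3 were above all PBS libraries, and LLC 1 lay among them. The means were 3.49 ± 1.32 FPKM in LLC and 1.83 ± 0.312 FPKM in PBS (SD, n = 3 each), with a limma log2 difference of 0.62, an SE of 0.26 and an adjusted p of 0.679. These levels rested on 104, 220 and 249 read ends in LLC and on 109, 98 and 80 in PBS.

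Myf6 (NM_008657, chr10:107492849-107494723, minus strand) was the most abundant of the 4 myogenic factors per length. It had 52.6, 81.1 and 82.1 FPKM in the LLC libraries, against 56.1, 56.2 and 38.9 FPKM in the PBS libraries. As with Myog, LLC 2 and LLC 3 were above all PBS libraries and LLC 1 was not. The means were 71.9 ± 16.8 FPKM in LLC and 50.4 ± 9.97 FPKM in PBS (SD, n = 3 each), and the limma log2 difference of 0.50 (SE 0.24) had an adjusted p of 0.769. Myf6 made up 87.2% of the summed FPKM of the 4 factors in LLC and 79.7% in PBS.

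Myf5 (NM_008656, chr10:107482908-107486134, minus strand), the neighbour of Myf6 on the same strand, was low in all libraries. Its values were 0.659, 1.32 and 0.912 FPKM in the LLC libraries, against 0.566, 0.508 and 0.555 FPKM in the PBS libraries. All LLC values were above all PBS values, and they rested on 49, 95 and 76 read ends in LLC and 40 in each PBS library. With a mean of 0.753 FPKM over the 6 libraries Myf5 was under the filter of 1 FPKM. In the limma fit without that filter its log2 difference was 0.33 with an SE of 0.14 and an adjusted p of 0.714.

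Pax7 (NM_011039, chr4:139738081-139832968, minus strand), also under the filter, had 0.655, 0.494 and 0.818 FPKM in the LLC libraries, against 0.655, 0.532 and 0.264 FPKM in the PBS libraries. The groups overlapped, with the same value in LLC 1 and PBS 1 as printed. The log2 difference without the filter was 0.16 with an SE of 0.13 (limma, adjusted p 0.931).

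**Figure D1:**
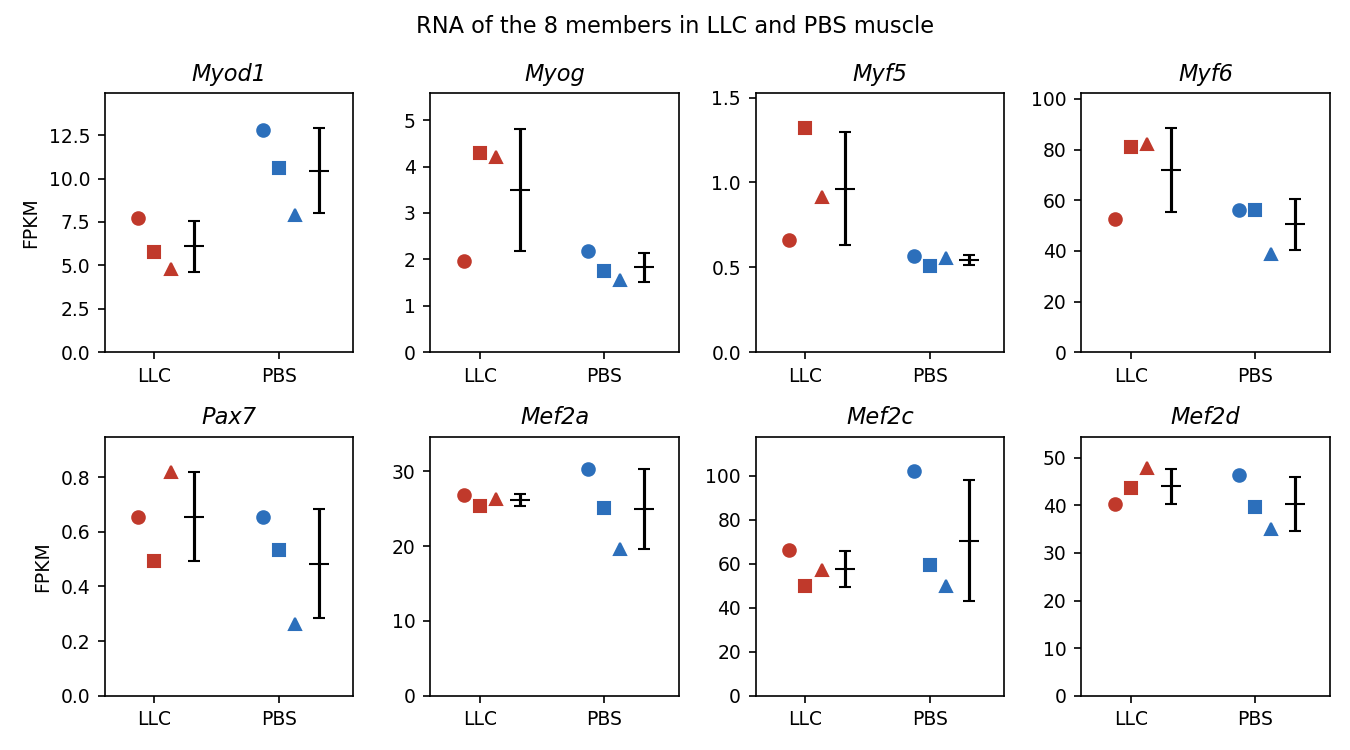
FPKM (vertical axes, each from 0 and on its own scale) of the 8 genes in 3 LLC and 3 PBS muscle libraries. Points are libraries, with circle, square and triangle for replicates 1, 2 and 3, and bars give the mean and SD; the Myod1 points of LLC lie below those of PBS, and the Mef2c point of PBS 1 at 102 FPKM stands above the other 5.

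The balance between the factors was also read within each library, where scaling cancels out. These ratios were chosen after the values were seen and are given without a test. The Myog to Myod1 ratio of FPKM values was 0.255, 0.749 and 0.877 in the LLC libraries, against 0.169, 0.166 and 0.198 in the PBS libraries. The 3 PBS ratios lay close together, and all LLC ratios were above them, LLC 1 by a small margin. The Myf6 to Myod1 ratio was 6.81, 14.1 and 17.1 in LLC, against 4.37, 5.33 and 4.92 in PBS, again with no overlap. The Myf6 to Myog ratio averaged 21.7 ± 4.36 in LLC and 27.6 ± 3.90 in PBS (SD, n = 3 each), and its groups overlapped. The ratios of Mef2c and of Mef2d to Mef2a were formed as well, and in both the groups overlapped. Both ratios to Myod1 share its values, which were themselves without overlap, so they are not separate results. LLC 1 held the lowest ratios to Myod1 of the LLC group and LLC 3 the highest.

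**Figure D2:**
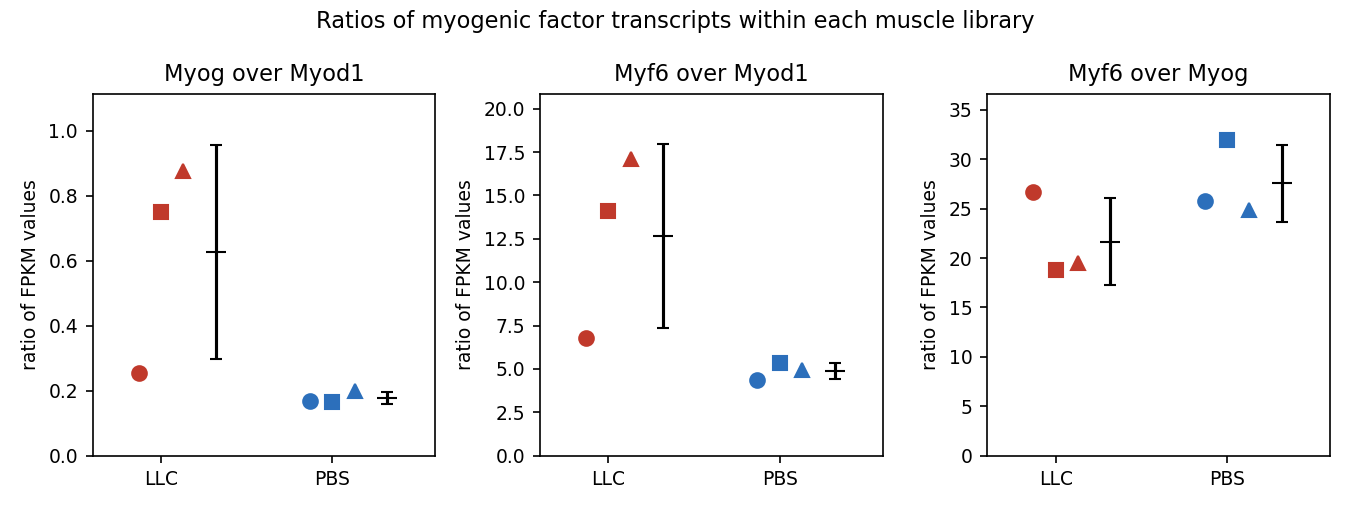
Ratios of FPKM values (vertical axes, from 0) of Myog to Myod1, Myf6 to Myod1 and Myf6 to Myog in 3 LLC and 3 PBS muscle libraries, with circle, square and triangle for replicates 1, 2 and 3 and bars for the mean and SD. Both ratios to Myod1 are above all PBS values in every LLC library, and Myf6 to Myog overlaps.

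For all 3 MEF2 genes the LLC and PBS libraries overlapped. Mef2a (NM_001291195, chr7:67231163-67372858, minus strand) had 26.9, 25.3 and 26.3 FPKM in the LLC libraries, against 30.3, 25.1 and 19.6 FPKM in the PBS libraries. The LLC values lay within the range of PBS, and the limma log2 difference was 0.08 with an SE of 0.17 (adjusted p 1.0), with the sign turning to -0.08 without PBS 3. Mef2c (NM_001347573, chr13:83523656-83667079, plus strand) had 66.3, 50.0 and 56.9 FPKM in the LLC libraries, against 102, 59.5 and 50.0 FPKM in the PBS libraries. One library, PBS 1, was far above the other 5. The limma log2 difference of -0.22 (SE 0.28, adjusted p 1.0) became 0.07 without PBS 1. Mef2d (NM_001310593, chr3:88142372-88172091, plus strand) had 40.4, 43.7 and 47.9 FPKM in the LLC libraries, against 46.3, 39.6 and 35.1 FPKM in the PBS libraries. Its log2 difference was 0.13 with an SE of 0.14 (limma, adjusted p 1.0).

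Per length, the order of the mean levels was Myf6, Mef2c, Mef2d, Mef2a, Myod1, Myog, Myf5 and Pax7 in the LLC libraries. In the PBS libraries Mef2c stood above Myf6, and the other places were the same. Neighbours in that order whose libraries overlapped were Myf6 with Mef2c and Myf5 with Pax7 in both groups, and Myf6 with Mef2d in PBS. All 3 MEF2 genes were above Myod1 in every library.

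The genes whose profile over the 6 muscle libraries was most like that of a member were found by Pearson r of log2(FPKM + 1), among genes that averaged at least 5 FPKM and varied by an SD of at least 0.3 on that scale. These are descriptions over libraries of both groups. For Myod1 they were Ppp1r14c (r = 0.985), Tceal7 (0.985) and Kcnc1 (0.984), and 0.809% of the genes compared reached r = 0.95. For Myog they were Car4 (0.985), Cep85l (0.978) and Trim63 (0.978), the last encoding the muscle ubiquitin ligase MuRF1, with 0.280% at r = 0.95 or above. Trim63 had 69.1, 145 and 172 FPKM in the LLC libraries, against 57.7, 56.0 and 48.9 FPKM in the PBS libraries, the same order of LLC 1 below LLC 2 and LLC 3 as in Myog. For Myf6 they were Pde4b (0.982), Pdlim3 (0.971) and Eda2r (0.970), with 0.249% at that level. Eda2r had 4.31, 10.2 and 12.6 FPKM in the LLC libraries, against 4.98, 3.19 and 1.65 FPKM in the PBS libraries, with LLC 1 inside the PBS range. For Mef2c they were Tulp4 (0.994), 2310065F04Rik (0.986) and Rcan2 (0.985), which all had their highest value in PBS 1.

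The wider pathway was read from 6 gene lists. In no list did a gene pass the adjusted threshold with limma. Of 30 partners and repressors of the myogenic factors tested, 17 were above 0 and 13 below, with a median log2 difference of 0.02, against 0.01 over all genes tested. In this list 6 genes had LLC above PBS without overlap and 2 had it below, where all genes tested gave 9.50% and 3.94%. Vgll2, a cofactor of TEAD factors in muscle, had 31.7, 34.2 and 29.4 FPKM in the LLC libraries, against 24.2, 21.9 and 22.5 FPKM in the PBS libraries (limma log2 difference 0.46, SE 0.11, adjusted p 0.353). Hey1, a Notch-responsive repressor, averaged 5.43 ± 0.483 FPKM in LLC and 2.98 ± 0.832 FPKM in PBS (SD, n = 3 each; limma adjusted p 0.410). Id1, which binds E proteins and keeps them from the myogenic factors, had 26.4, 46.7 and 39.6 FPKM in LLC, against 14.7, 20.4 and 23.8 FPKM in PBS. Its groups did not overlap, and its adjusted p was 0.484 with limma and 0.0381 with DESeq2.

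Of 16 MEF2 cofactors tested, 9 were above 0 and 7 below, with a median log2 difference of 0.02. Sik1, a kinase that phosphorylates class IIa histone deacetylases, averaged 7.86 ± 1.92 FPKM in LLC and 4.37 ± 1.29 FPKM in PBS (SD, n = 3 each), and Hdac5, one of those deacetylases, 24.0 ± 0.851 FPKM in LLC and 20.3 ± 1.73 FPKM in PBS. Mrtfa, a coactivator of SRF, averaged 9.45 ± 2.36 FPKM in LLC and 15.1 ± 3.05 FPKM in PBS. Each of these 3 had groups without overlap, and their limma adjusted p-values were 0.560, 0.733 and 0.608. They were named for the smallest p of the list. In the whole list 3 genes had LLC above PBS without overlap and 1 had it below, against 9.50% and 3.94% of all genes tested.

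Of 16 MEF2 target genes, 11 were above 0 and 5 below, the median log2 difference was 0.10, and 6 had LLC above PBS without overlap and 0 had it below, against 9.50% and 3.94% of all genes tested. Hspb7, a small heat shock protein of muscle, had 69.4, 110.3 and 79.9 FPKM in the LLC libraries, against 55.0, 36.7 and 32.3 FPKM in the PBS libraries (limma log2 difference 1.06, SE 0.26, adjusted p 0.388). Xirp1, an actin-binding protein known from injured muscle, had 17.2, 44.2 and 37.3 FPKM in LLC, against 16.4, 11.7 and 7.95 FPKM in PBS (limma log2 difference 1.33, SE 0.42, adjusted p 0.504). Both had groups without overlap, with LLC 1 the LLC library nearest to PBS. Klf4 averaged 19.8 ± 4.88 FPKM in LLC and 11.2 ± 2.50 FPKM in PBS (SD, n = 3 each), with a limma adjusted p of 0.505.

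Of 12 synapse and denervation genes tested, 8 were above 0 and 4 below, with a median log2 difference of 0.45 and 4 with LLC above PBS without overlap, against 9.50% of all genes tested. Chrna1, the alpha subunit of the muscle acetylcholine receptor, had 5.67, 6.19 and 3.97 FPKM in the LLC libraries, against 3.48, 3.22 and 2.10 FPKM in the PBS libraries. The lowest LLC value was above the highest PBS value, and the limma log2 difference was 0.67 with an SE of 0.22 and an adjusted p of 0.517. Rrad averaged 5.02 ± 2.54 FPKM in LLC and 1.81 ± 0.392 FPKM in PBS, and Ankrd1 6.07 ± 2.32 FPKM in LLC and 2.91 ± 0.864 FPKM in PBS (SD, n = 3 each). Neither passed, with limma adjusted p-values of 0.506 and 0.554.

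Of 10 fusion and developmental contractile genes tested, 7 were above 0 and 3 below, with a median log2 difference of 0.17. Tnni1, slow troponin I, had 75.1, 69.9 and 28.4 FPKM in the LLC libraries, against 36.1, 4.76 and 3.33 FPKM in the PBS libraries (limma log2 difference 2.47, SE 0.89, adjusted p 0.585). Its groups overlapped through LLC 3 and PBS 1. Myl6b averaged 6.81 ± 2.04 FPKM in LLC and 3.83 ± 0.522 FPKM in PBS, and Des, the muscle intermediate filament, 831 ± 162 FPKM in LLC and 607 ± 71.6 FPKM in PBS (SD, n = 3 each), with limma adjusted p-values of 0.527 and 0.694. Of 11 satellite cell genes tested, 9 were above 0 and 2 below, with a median log2 difference of 0.23. The receptors Notch3 and Notch1 had groups without overlap, LLC higher, the only 2 of this list, against 9.50% of all genes tested. Notch3 averaged 9.12 ± 1.30 FPKM in LLC and 6.25 ± 1.66 FPKM in PBS, and Notch1 6.45 ± 0.405 FPKM in LLC and 4.25 ± 1.47 FPKM in PBS (SD, n = 3 each), with limma adjusted p-values of 0.688 and 0.695. Spry1 was also without a call, at 20.6 ± 2.45 FPKM in LLC and 17.1 ± 1.42 FPKM in PBS (limma adjusted p 0.808).

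Markers of other cell types were summed in the same libraries. The summed FPKM of 12 fibre markers ranged from 53786 to 60994 in LLC and from 48173 to 55320.2 in PBS, and no marker of any list was at 0 in all libraries. The 8 slow fibre markers, which include Tnni1 and Myoz2, summed to 1263, 756 and 375 FPKM in the LLC libraries, against 610.2, 153 and 168 FPKM in the PBS libraries, and all 8 had a positive log2 difference. Endothelium is known to express Hey1, Notch1 and Klf4 as well. The sum of the 8 endothelial markers ranged from 243 to 296 FPKM in LLC and from 120.4 to 147 FPKM in PBS without overlap. Of these 8, 7 had a log2 difference above 0, while Kdr had -0.21. The 7 tendon markers ranged from 39.2 to 256 FPKM in LLC and from 291 to 428 FPKM in PBS, also without overlap. Neutrophil markers ranged from 192 to 11014 FPKM in LLC and from 132 to 12485 FPKM in PBS, and epidermal markers from 65.9 to 1325 FPKM in LLC and from 1.24 to 112 FPKM in PBS. Erythroid markers ranged from 34.3 to 258 FPKM in LLC and from 16.8 to 817 FPKM in PBS. For neutrophil, erythroid, bone and cycling markers the lowest library was LLC 3 in LLC and PBS 1 in PBS. B cell markers were also lowest in PBS 1 within PBS, but LLC 3 was the highest LLC library. The part of these marker differences in the results above was not tested.

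In the myotubes all 21 member peaks passed the filter of 5 tags per 10 M. On the deposited scale limma called 1 of the 21 higher in C26 medium, against a background of 1.15% of 37358 peaks, and 0 lower, against 1.88%, with 3.03% of all peaks called in either direction. After median-of-ratios scaling 8 of 21 were called higher, against a background of 17.0%, and 1 lower, against 12.7% (9 in either direction, against 29.8%). The edgeR model on recovered reads likewise called 8 higher (background 17.6%) and 1 lower (12.8%; 30.4% in either direction), and DESeq2 called 7 (20.2%). The median log2 difference of the 21 peaks was -0.23, against -0.54 over all peaks, as deposited, and 0.26, against -0.02, after median-of-ratios scaling. The deposited scale depended on single libraries: without control 1 limma called 3 member peaks higher and 1 lower, and without control 2 it called 2 higher and 5 lower. After scaling, leaving out any 1 library gave 6 to 8 higher and 1 lower. On the deposited scale 2 member peaks had C26 medium above control without overlap (background 3.24%) and 4 had it below (34.0%). After scaling 9 were above without overlap (21.7%) and 1 was below (19.4%). Of the 21 regions, 11 were in the peak lists of all 6 libraries, against 60.1% of all merged peaks.

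**Figure D3:**
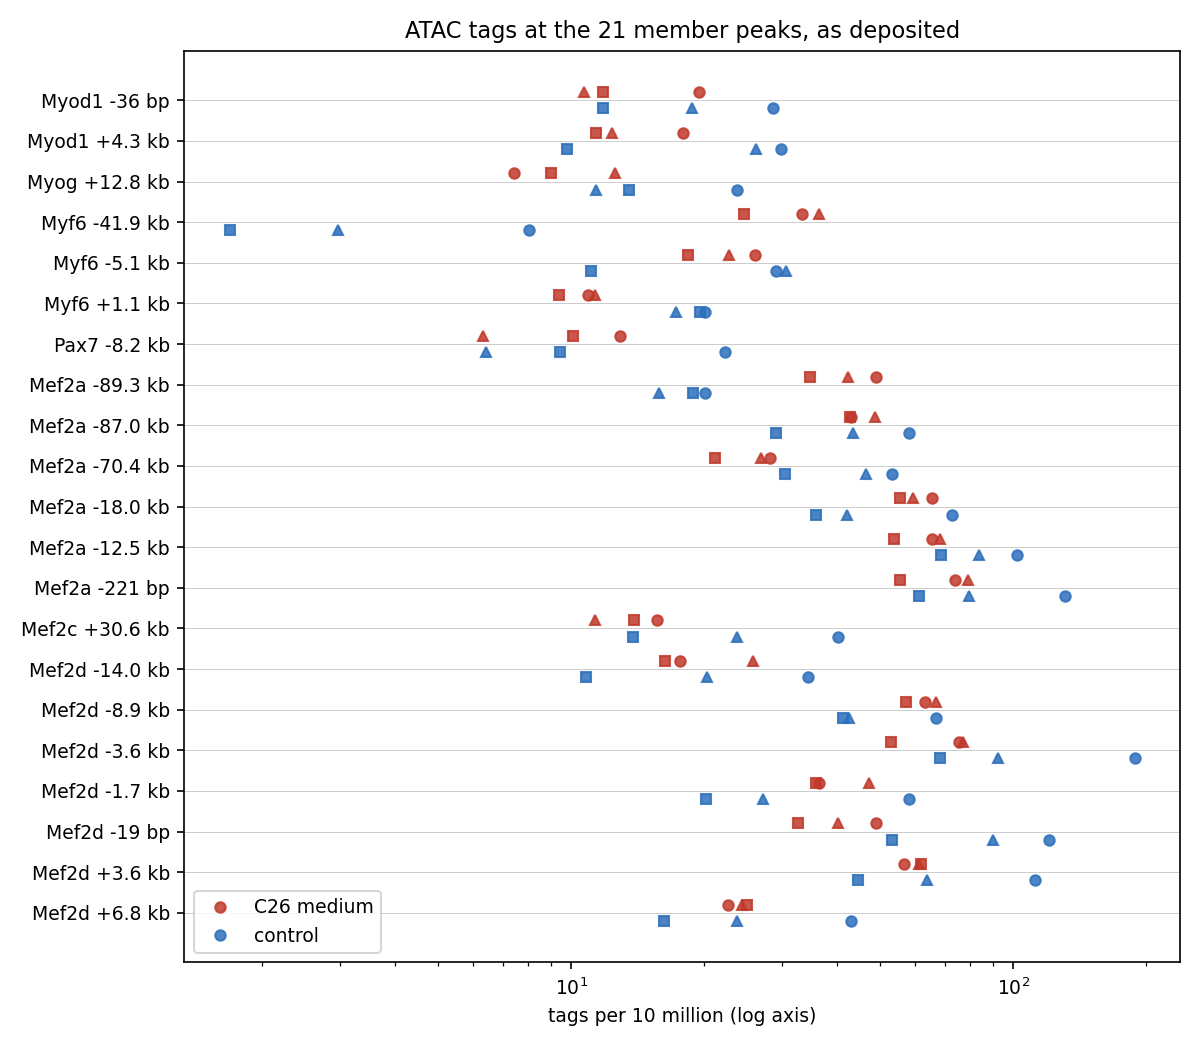
Tags per 10 M (horizontal log axis) at the 21 peaks annotated to the members, named by gene and distance from its start, in 3 C26 medium and 3 control libraries of C2C12 myotubes. Circle, square and triangle are replicates 1, 2 and 3; at the Myf6 peak 41.9 kb upstream the C26 medium points lie between 24.6 and 36.3 and the control points between 1.69 and 8.04.

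The only member peak called on the deposited scale was the farthest of the 3 assigned to Myf6. It lies 41885 bp upstream of the Myf6 start, at chr10:107536410-107536807 (mm10, 398 bp), within intron 38 of 44 of Ptprq, a gene for a receptor-type phosphatase, and 50.5 kb upstream of the Myf5 start. It had 33.2, 24.6 and 36.3 tags per 10 M in the C26 medium libraries, against 8.04, 1.69 and 2.97 in the control libraries. The lowest C26 medium value was far above the highest control value. The means were 31.4 ± 6.02 in C26 medium and 4.23 ± 3.36 in control (SD, n = 3 each), and the limma log2 difference was 2.80 with an SE of 0.45 and an adjusted p of 1.03e-06. After median-of-ratios scaling it was 3.29 with an SE of 0.29 (limma adjusted p 6.80e-13), and the ratio of means was 12.4. The region was in the peak lists of all 3 C26 medium libraries and of 0 control libraries, a pattern shared by 2.39% of all merged peaks. It thus entered the merged peaks through C26 medium libraries alone. Its control mean was under the filter of 5 tags per 10 M, which the region passed through its C26 medium values. Among 37358 peaks it was number 25 from the top by log2 difference as deposited and number 21 after scaling. The peak lists and this rank are therefore not separate support for the difference.

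The other 2 Myf6 peaks were nearer to the gene. The peak 5069 bp upstream (chr10:107499609-107499976) had 26.1, 18.4 and 22.8 tags per 10 M in C26 medium, against 29.0, 11.1 and 30.6 in control, with overlap. Its limma log2 difference was 0.04 (SE 0.41, adjusted p 0.948) as deposited and 0.55 (SE 0.21, adjusted p 0.0428) after scaling. That call was lost with quantile normalization (limma adjusted p 0.110) and with DESeq2 (adjusted p 0.144). The peak in intron 2 of 2 of Myf6 (chr10:107493315-107493876) had 10.9, 9.37 and 11.3 tags per 10 M in C26 medium, against 20.1, 19.6 and 17.3 in control. All C26 medium values were below all control values there, with a limma log2 difference of -0.80 (SE 0.44, adjusted p 0.191). After scaling the groups overlapped and the difference was -0.30 (SE 0.26, adjusted p 0.410).

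The 2 peaks of Myod1 and the single peaks of Myog, Pax7 and Mef2c were not called on either scale. The promoter peak of Myod1, centred 36 bp before its start (chr7:46376201-46376676), had 19.5, 11.8 and 10.7 tags per 10 M in C26 medium, against 28.6, 11.8 and 18.8 in control, with overlap. Its limma log2 difference was -0.43 (SE 0.43, adjusted p 0.458) as deposited and 0.08 (SE 0.25, adjusted p 0.842) after scaling. The Myod1 peak 4280 bp downstream of the start had 17.9, 11.4 and 12.4 tags per 10 M in C26 medium and 29.9, 9.79 and 26.2 in control, with a limma adjusted p of 0.375. The peak assigned to Myog lay 12800 bp downstream of its start in a LINE repeat inside an intron of Ppfia4, and it had 7.41, 9.02 and 12.6 tags per 10 M in C26 medium and 23.7, 13.5 and 11.4 in control (limma adjusted p 0.284). The Pax7 peak 8227 bp upstream averaged 9.75 ± 3.29 tags per 10 M in C26 medium and 12.7 ± 8.45 in control (SD, n = 3 each), with a limma adjusted p of 0.719. The Mef2c peak in intron 3 of 10 averaged 13.6 ± 2.19 in C26 medium and 25.9 ± 13.3 in control (SD, n = 3 each), with a limma adjusted p of 0.190. At the Myod1, Myog, Pax7 and Mef2c peaks the highest value was that of control 1, the library with the larger share of tags in peaks.

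Mef2a had 6 peaks, 5 of them upstream of the gene and outside any gene. The farthest, 89307 bp upstream at chr7:67461961-67462369, had 48.8, 34.7 and 42.3 tags per 10 M in C26 medium, against 20.1, 18.9 and 15.8 in control. All C26 medium values were above all control values on both scales. The limma log2 difference was 1.15 with an SE of 0.40 and an adjusted p of 0.0768 as deposited, and 1.66 with an SE of 0.19 and an adjusted p of 8.78e-10 after scaling. The promoter peak of Mef2a, 221 bp upstream of the annotated start (chr7:67372583-67373576), had 73.8, 55.5 and 79.1 tags per 10 M in C26 medium, against 131, 61.1 and 79.6 in control. It was not called on these scales, with a limma log2 difference of -0.32 (SE 0.36, adjusted p 0.504) as deposited and 0.21 (SE 0.11, adjusted p 0.134) after scaling, though quantile normalization called it higher (limma adjusted p 0.0487). The peak at 70393 bp upstream averaged 25.4 ± 3.70 tags per 10 M in C26 medium and 43.3 ± 11.7 in control, and that at 12470 bp upstream 62.5 ± 7.64 in C26 medium and 84.8 ± 16.9 in control (SD, n = 3 each). Both were without overlap as deposited, and neither was called (limma adjusted p 0.189 and 0.381), while after scaling both overlapped. The other 2, named after their values were seen, lie 87044 and 17983 bp upstream and were called after scaling alone, with log2 differences of 0.61 (SE 0.13, limma adjusted p 0.000283) and 0.85 (SE 0.12, limma adjusted p 2.03e-07).

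Mef2d had the most peaks. After scaling its promoter peak was called lower and 3 of its other peaks were called higher. The promoter peak, centred 19 bp before the start at chr3:88142020-88142687, had 48.8, 32.6 and 40.1 tags per 10 M in C26 medium, against 120.2, 53.3 and 90.0 in control. All C26 medium values were below all control values on both scales. The limma log2 difference was -1.04 with an SE of 0.37 and an adjusted p of 0.0810 as deposited, and -0.51 with an SE of 0.12 and an adjusted p of 0.00106 after scaling, the only member peak called lower. The peak 8923 bp upstream (chr3:88133144-88133755) had 63.2, 57.3 and 67.0 tags per 10 M in C26 medium, against 67.0, 41.2 and 42.5 in control, with overlap as deposited. After scaling its log2 difference was 0.87 with an SE of 0.12 (limma adjusted p 1.38e-07) and its groups did not overlap. The peak 1711 bp upstream (chr3:88140449-88140873) had 36.3, 35.8 and 47.2 tags per 10 M in C26 medium, against 58.1, 20.2 and 27.2 in control. Its groups overlapped as deposited and not after scaling, where the log2 difference was 0.82 with an SE of 0.15 (limma adjusted p 3.42e-05). The peak 3577 bp into the gene, named after its values were seen, was called higher after scaling with a log2 difference of 0.34 (SE 0.11, limma adjusted p 0.0182), and it was not called with DESeq2 (adjusted p 0.0927). The peak 3592 bp upstream averaged 68.3 ± 13.5 tags per 10 M in C26 medium and 116 ± 63.4 in control (SD, n = 3 each) and was not called on either scale, with a limma adjusted p of 0.189 as deposited and 0.458 after scaling. The last 2, at 14046 bp upstream and 6771 bp downstream, had scaled log2 differences of 0.50 and 0.43 and were not called (limma adjusted p 0.0764 and 0.0690). At both of them C26 medium was above control without overlap after scaling.

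**Figure D4:**
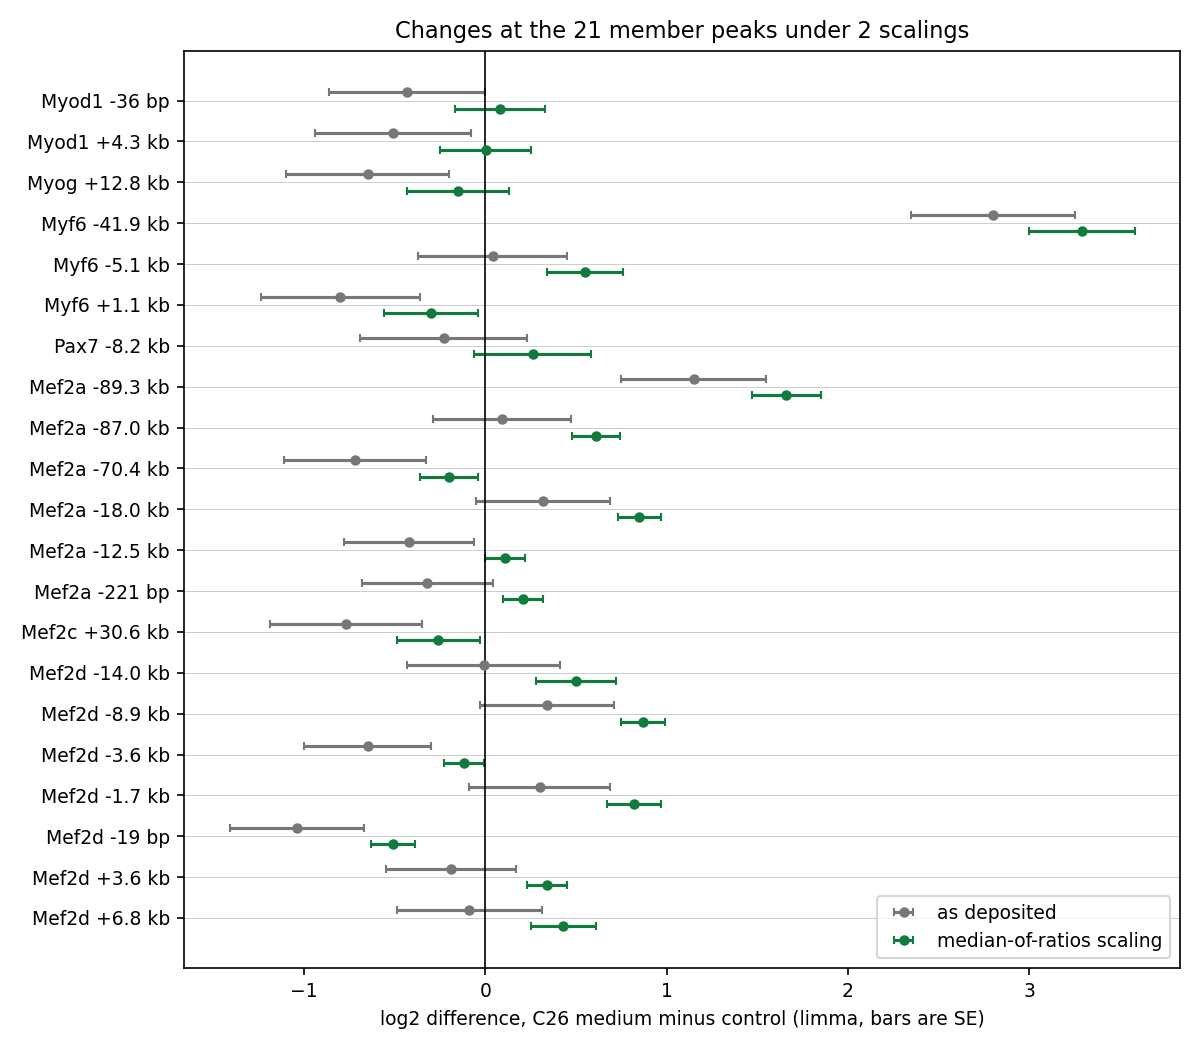
Log2 difference, C26 medium minus control, from limma (horizontal axis, bars give the SE) at the 21 member peaks, as deposited (grey) and after median-of-ratios scaling (green). The scaled values lie to the right of the deposited ones at every peak; the Myf6 peak 41.9 kb upstream is at 2.80 and 3.29, and the Mef2d promoter at -1.04 and -0.51.

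Summed over the common peak regions of each gene and after scaling, Mef2a had 386, 336 and 364 scaled tags in C26 medium over its 4070 bp of peaks, against 242, 286 and 267 in control. Mef2d had 381, 358 and 385 in C26 medium over 4095 bp, against 345, 299 and 309 in control. Myf6, with the peak in the Ptprq intron included, had 83.5, 66.7 and 78.9 in C26 medium over 1328 bp, against 31.7, 38.0 and 43.7 in control. In none of these genes did the groups overlap after scaling, and as deposited they overlapped in each. At each of the other Myf6 peaks the groups overlapped after scaling, so the Myf6 sum adds nothing to the peak in the Ptprq intron. The scaled sums of Myod1, Myog, Pax7 and Mef2c overlapped. No share over all genes stands beside these sums, so they are not read as a result about the members.

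The peaks of the wider lists were read in the same way. Over all peaks limma called 1.15% higher and 1.88% lower as deposited, and 17.0% higher and 12.7% lower after scaling, the shares beside which the counts of each list stand. Among 102 peaks of MEF2 cofactors, 2 were called higher and 0 lower as deposited, and 31 higher and 8 lower after scaling. One of the first was 13.1 kb upstream of Ppp3ca, the catalytic subunit of calcineurin, a phosphatase known to activate MEF2 factors, with 35.1, 30.2 and 34.9 tags per 10 M in C26 medium, against 22.3, 4.73 and 15.8 in control (limma log2 difference 1.39, adjusted p 0.0337). Among 71 peaks of MEF2 target genes, 1 was called higher and 1 lower as deposited, and 17 higher and 7 lower after scaling. A peak 18.7 kb upstream of Nr4a1, an orphan nuclear receptor, had 29.3, 29.1 and 33.5 tags per 10 M in C26 medium, against 17.0, 5.06 and 5.93 in control (limma log2 difference 1.79, adjusted p 0.00393). Both regions, named for a small p, had C26 medium above control without overlap as deposited, against 3.24% of all peaks.

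Among 78 peaks of synapse and denervation genes 1 was called higher and 4 lower as deposited (all peaks 1.15% and 1.88%), and 8 higher and 20 lower after scaling (all peaks 17.0% and 12.7%). A peak 13.1 kb upstream of Runx1, a factor known to rise in denervated muscle, averaged 26.8 ± 2.77 tags per 10 M in C26 medium and 72.1 ± 18.3 in control (SD, n = 3 each; limma log2 difference -1.37, adjusted p 0.0188). A peak 14.6 kb upstream of Cpe had 17.6, 13.5 and 22.5 in C26 medium, against 5.36, 1.01 and 7.91 in control (limma log2 difference 1.93, adjusted p 0.00509). Among 140 peaks tested of partners and repressors, 0 were called higher and 3 lower as deposited, and 17 higher and 23 lower after scaling. The peak of that list with the smallest p after scaling lay 59.7 kb downstream of the start of Twist2, a repressor of myogenic factors, and averaged 54.7 ± 5.42 tags per 10 M in C26 medium and 23.7 ± 4.59 in control (SD, n = 3 each; limma adjusted p 0.0619 as deposited and 1.02e-12 after scaling). Fusion and developmental contractile genes had 5 higher and 1 lower of 31 after scaling, and satellite cell genes 7 higher and 2 lower of 38, with 0 called in either list as deposited. After scaling the median log2 difference was 0.16 over the peaks of the MEF2 cofactors, 0.07 over the MEF2 targets, 0.02 over the partners and repressors, -0.01 over the fusion list, -0.0036 over the satellite cell list and -0.08 over the synapse list, against -0.02 over all peaks.

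The RNA and the chromatin come from different models, mouse muscle with an LLC tumour and cultured cells in C26 medium, so the values stand side by side without a test between them. The largest chromatin difference among the member peaks was at a region in an intron of Ptprq. The authors' annotation assigned it to Myf6, and whether it acts on Myf6 was not tested. The RNA difference of Myf6 in muscle was not called. Myod1 had the lowest unadjusted p of the members in muscle, and neither of its peaks in myotubes was called. Of 12 fibre markers, 4 had a promoter peak in the myotubes, as had 5 of 8 fibro-adipogenic markers and all 7 cycling markers. Each of the other marker lists had 0 to 2 genes with such a peak. No share over all genes stands beside these counts, so they are not read as a result about the cells.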

How the data were processed

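PolyA RNA of mouse muscle and open chromatin (ATAC) of C2C12 myotubes were analysed in 12 libraries, 3 per group. The builds GRCm38 and mm10 and the tools MACS2, Bowtie2, HISAT2, DESeq2 and HOMER come from the submitters' processing notes, without versions or settings. RNA values are FPKM, deposited by the authors and made with HOMER per the file headers, from RefSeq exons with both strands counted, so overlapping antisense genes cannot be told apart. The ATAC signal was deposited as a tag number for each merged peak, scaled to 10 M tags, per the file headers. Multiplied by the library total, each is a whole multiple of 0.5 tags (100.0% of low values within 0.1), which gave back read ends and depth. FPKM gave them back too. No library was a copy of another; at most 1.77% of values were identical.

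From these, log2(value + 1) was tested in R 4.3.3 with limma 3.58.1 (trend), two-sided, with Benjamini-Hochberg adjustment over the 12981 of 20194 genes that averaged 1 FPKM or more, or the 37358 of 38244 peaks that averaged 5 or more, threshold 0.05; fold changes of low values are understated on this scale. Recovered reads were also tested with edgeR 4.0.16 and DESeq2 1.42.0. With 3 libraries against 3 an exact permutation test of one value cannot go below p = 0.1. The fits were tested on simulated data. Members, lists and tests were chosen with earlier results of these data known. Named peaks are those within 1000 bp of a start and up to 3 others per gene with the smallest p; of each list up to 3 genes are named. Promoter windows are RefSeq's for GRCm38.p6. No genome was used, and all 12 sample columns were.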

Additional observations from a re-analysis of the deposited data

How the results depend on the processing

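Leaving out single libraries, other pseudocounts, filters, scalings and tools left the member genes that passed the filter in muscle without a call, as did the fit with no filter for Myf5 and Pax7, which were fitted in that one alone, and the Myf6 peak at -41885 called wherever it was fitted (log2 difference 2.42 to 3.29 without single libraries). Genes called in muscle numbered 0 in the main limma analysis, 1 with a mean of at least 5 FPKM, 2 as TPM, 1 with median-of-ratios scaling and 312 with DESeq2, and 0 without any single library. Peaks called numbered 1132 in the main analysis, 495 without a filter, 471 with a mean of at least 20, 11121 after median-of-ratios scaling, 11021 after quantile normalization, 11354 with edgeR and 7531 with DESeq2. Without single libraries they ranged from 133 to 20602 as deposited (4571 without control 1, 20602 without control 2, 189 without control 3, and 133, 174 and 143 without C26 medium 1, 2 and 3) and were 9475, 9474 and 8634 without control 1, 2 and 3 and 9675, 9511 and 8702 without C26 medium 1, 2 and 3 after scaling, alternatives added after seeing the data. Of the calls, 37.8% were higher in C26 medium as deposited and 57.3% after scaling. Member peaks called numbered 1, then 0 with a mean of at least 20, which drops the Myf6 peak at -41885, 9 after median-of-ratios scaling, 9 after quantile normalization, 9 with edgeR, 7 with DESeq2, and 1 to 7 without single libraries (4 without control 1, 7 without control 2), or 8, 7 and 8 without control 1, 2 and 3 and 8, 9 and 8 without C26 medium 1, 2 and 3 after scaling. The cause was not tested. Signs turned as follows. Mef2a RNA became -0.00097 with DESeq2. With median-of-ratios scaling, quantile normalization, edgeR and DESeq2 the Mef2a peak at -12470 became 0.11, 0.15, 0.13 and 0.11, that at -221 became 0.21, 0.26, 0.23 and 0.22, the Mef2d peak at +3577 became 0.34, 0.36, 0.33 and 0.33, that at +6771 became 0.43, 0.33, 0.43 and 0.43, and that at -14046 became 0.50, 0.38, 0.53 and 0.52. With median-of-ratios scaling, edgeR and DESeq2 the Myod1 peak at -36 became 0.08, 0.10 and 0.11 and the Pax7 peak 0.26, 0.21 and 0.23; the Myod1 peak at +4280 became 0.0017 with median-of-ratios scaling. Without single libraries the ranges were -0.08 to 0.23 (Mef2a RNA), -0.43 to 0.07 (Mef2c RNA), -0.17 to 0.32 (Mef2a -87044), -0.49 to 0.16 (Mef2d +3577), -0.40 to 0.28 (Mef2d +6771), -0.42 to 0.37 (Mef2d -14046), -0.01 to 0.72 (Mef2d -1711), -0.41 to 0.28 (Myf6 -5069) and -0.59 to 0.24 (Pax7 -8227). Of the member peaks within 1000 bp of a start 0 were called by limma as deposited, and 0 within 3000 bp. Whether the replicate numbers pair the libraries cannot be told with 3 per group, where deviations from the group mean depend on each other. Same-number correlations were -0.09, 0.60 and -0.60 in RNA, where other numbers gave -0.58 to 0.63, and -0.01, 0.01 and -0.02 in ATAC. With the replicate block 0 genes, 1071 peaks and 1 member peak were called.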
